A study of Mus musculus with 5 samples.

Results

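Transcripts of the urea cycle were followed in mouse hepatocytes between feeding and 24 h without food. The 7 genes were chosen by symbol, from 32285 genes in the deposited matrix: the enzymes Nags, Cps1, Otc, Ass1 and Asl and the mitochondrial carriers Slc25a15 and Slc25a13. All 7 were found. The mice were male wild-type C57BL/6J on normal chow, and their livers were the source of isolated hepatocytes. For 3 days before sampling they had been trained to 16 h without food overnight and 8 h of daytime feeding. All groups then ate chow and drank water with 20% sucrose for 4 h, after which the fed group (0 h) was taken, and food and sucrose were removed from the others for 4, 8, 16 or 24 h. Each time was 1 droplet library of the 10x Genomics 3' v3 kind, which counts RNA molecules by unique molecular identifiers (UMIs). How many animals each library stands for is not given in the sources used here. With 1 library a time there was no replicate, so no difference below has a test, and every 95% interval covers counting error only. Differences describe these libraries.

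The hour of the day moved with the time without food. Libraries were taken at clock hours 13, 17, 21, 5 and 13 in time order, so that only the fed and 24 h libraries share an hour, and elsewhere fasting and hour of day cannot be told apart.

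The urea cycle turns ammonia, released when amino acids are broken down, into urea that the kidney excretes, and the liver is the main organ that runs it whole. Nags makes N-acetylglutamate, without which Cps1 cannot fix ammonia into carbamoyl phosphate. Otc joins that product to ornithine inside the mitochondrion, and Slc25a15 exchanges the resulting citrulline for cytosolic ornithine. In the cytosol Ass1 couples citrulline to aspartate, and Asl splits the product into arginine, from which urea is released, and fumarate. Slc25a13, or citrin, exports the aspartate that Ass1 uses. Protein breakdown in fasting and dietary protein both feed the cycle, and its genes are known targets of glucagon, glucocorticoids and C/EBP factors. The enzymes are known to be enriched around the portal vein, where Cyp2f2 is high, while ammonia that escapes is captured as glutamine by Glul in the last cells around the central vein, where Cyp2e1 is high.

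Promoter windows were available in the RefSeq table (build GRCm38.p6) for 5 of the 7 genes, not for Cps1 and Asl. Of those genes, Ass1, Nags and Slc25a15 were highest in the 8 h library and lower in the 16 h library, and Otc had the opposite order, so these 4 windows are shown to let their bases be compared. Each is the stretch before the transcription start on the gene's own strand, 5′ to 3′, cut where a GENCODE exon begins. Capitals mark matches, on either strand, to TTNCNNAA (a C/EBP pattern) or GGGCGG (the GC box of Sp1). The windows are chr2:31470020-31470206 (Ass1, plus strand, 187 bases), chr11:102145263-102145512 (Nags, plus), chr8:22398622-22398871 (Slc25a15, minus) and chrX:10252055-10252304 (Otc, plus).
Ass1: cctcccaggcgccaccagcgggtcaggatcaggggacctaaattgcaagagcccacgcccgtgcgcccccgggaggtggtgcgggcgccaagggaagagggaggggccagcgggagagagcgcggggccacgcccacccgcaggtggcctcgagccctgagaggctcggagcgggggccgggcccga
Nags: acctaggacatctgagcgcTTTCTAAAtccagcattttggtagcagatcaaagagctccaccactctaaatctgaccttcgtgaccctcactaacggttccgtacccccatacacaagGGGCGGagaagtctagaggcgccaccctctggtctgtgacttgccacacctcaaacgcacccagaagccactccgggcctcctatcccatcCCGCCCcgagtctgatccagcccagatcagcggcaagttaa
Slc25a15: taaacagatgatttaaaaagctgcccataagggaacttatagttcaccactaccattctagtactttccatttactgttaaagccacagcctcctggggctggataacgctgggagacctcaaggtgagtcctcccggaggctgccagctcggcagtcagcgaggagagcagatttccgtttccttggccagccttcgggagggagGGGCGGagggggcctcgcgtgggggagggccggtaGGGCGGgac
Otc: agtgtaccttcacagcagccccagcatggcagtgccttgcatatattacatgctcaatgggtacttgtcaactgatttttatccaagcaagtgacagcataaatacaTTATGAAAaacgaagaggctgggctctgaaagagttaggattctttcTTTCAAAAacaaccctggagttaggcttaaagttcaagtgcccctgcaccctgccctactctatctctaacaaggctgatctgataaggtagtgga
Otc held 2 matches to the C/EBP pattern, which 36.9% of 32851 RefSeq promoters of 250 bases also hold, and no GC box. Slc25a15 held 2 GC boxes and Nags 2, beside 1 C/EBP match in Nags, and 32.7% of all promoters hold a GC box. The 187 bases shown for Ass1 held neither, although its full 250 bases held 1 GC box, which lies past the point where the window was cut. Matches to the cAMP response element core TGACG (17.8% of promoters), the glucocorticoid receptor pattern ACANNNTGT (5.84%) or TATAAA (12.4%) were absent from these 4 windows, and Slc25a13 held 1 TGACG. Such a match only describes the letters.

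Hepatocytes were barcodes with 1000 or more UMIs, 500 or more genes and 2 to 30% of UMIs from the 13 mitochondrially encoded genes (mt- UMIs). They numbered 28810 of 50000 barcodes, or 7826, 4567, 2716, 9125 and 4576 in time order. Levels are given in CPM, the UMIs of a gene summed over the hepatocytes of a library per 1000000 of their UMIs outside the mt- genes. The 8 hepatocyte markers were all above 10 CPM in every library, with 76395, 57626, 50329.5, 82747 and 78449 CPM of Alb in time order. Of the 7 lists of other cells, endothelial markers summed to 90.8 CPM in the fed library and 11.8 to 34.0 CPM in the fasted ones, and macrophage markers to 33.9 CPM against 0.118 to 5.22 CPM, with 5 of 7 at 0 at 8 h. The other lists summed to at most 78.1 CPM, led by Sox9 and Alas2. Depth differed: the median hepatocyte held 5408, 12097, 15005, 4391 and 8979 UMIs, and the median mt- share was 11.9%, 19.1%, 9.79%, 13.7% and 16.3%. Barcodes under 2% mt- UMIs numbered 2172, 5345, 576, 234 and 5400, and at 8 h only 3325 of 10000 barcodes passed the depth limits. In all, 259 barcode sequences occurred in more than 1 library, in 73 cases as hepatocytes of both, and leaving them out changed none of the counts of urea cycle genes past 1.5-fold given below. Leaving out barcodes with markers of other cells changed none either.

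Hepatocytes of a library held 33521626 to 45532684 UMIs outside the mt- genes. Together the 7 genes made up 0.799% of these UMIs in the fed library and 0.919%, 1.20%, 0.598% and 0.796% after 4, 8, 16 and 24 h. Their summed transcripts were thus highest at 8 h and lowest at 16 h.

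At the mitochondrial entry to the cycle, Cps1 varied less than Nags. Cps1 (ENSMUSG00000025991, chr1:67123026-67231259, plus strand, GRCm38) measured 3853, 4203, 4543, 3143 and 2915 CPM in time order. It was the most abundant of the 7 at 0, 4 and 16 h by 3' UMIs, which do not scale with transcript length, and its highest level was 1.56 times its lowest. Relative to fed, its log2 ratio was 0.24 at 8 h (0.23 to 0.25) and -0.40 at 24 h (-0.41 to -0.39), neither past 1.5-fold. The 24 h ratio passed it in 2 of 13 other settings, and was lowest at -0.75 with 2 to 15% mt- UMIs. Nags (ENSMUSG00000048217, chr11:102145513-102149477, plus), whose product switches Cps1 on, was the least abundant, at 56.8, 63.3, 84.6, 45.8 and 46.6 CPM in time order. Its order was the same as that of Cps1 except that the 2 lowest libraries, 16 and 24 h, changed places and could not be told apart within counting error (log2 ratio 0.03, -0.07 to 0.13). Nags was 1.49 times its fed level at 8 h, just short of the 1.5-fold used as the call, and at 16 h it stood 1.85 times below its 8 h level, past it.

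Otc went the other way. The gene (ENSMUSG00000031173, chrX:10252305-10321024, plus) measured 626, 571, 389, 678 and 539 CPM at 0, 4, 8, 16 and 24 h. The 8 h library, in which Cps1, Ass1, Nags and Slc25a15 peaked, was its lowest, 1.61 times below fed (log2 ratio -0.69, -0.72 to -0.66), and the 16 h library was its highest. From 8 to 16 h Otc was 1.74 times higher.

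The carriers differed from each other. Slc25a15 (ENSMUSG00000031482, chr8:22375551-22398597, minus), the ornithine and citrulline exchanger, measured 217, 308, 471.5, 200.4 and 232 CPM. At 8 h it was 2.18 times its fed level (log2 ratio 1.12, 1.08 to 1.16), and by 16 h it stood 2.35 times below that peak. Slc25a13 (ENSMUSG00000015112, chr6:6041218-6217173, minus), the aspartate exporter, measured 279, 351, 304, 336 and 406 CPM. All its fasted libraries were above fed, with the highest at 24 h and a highest to lowest ratio of 1.46. It thus passed 1.5-fold in no comparison under the main setting. Its 24 h ratio to fed passed in 3 of 13 other settings, at up to log2 0.69 with median-of-ratios scaling.

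**Figure D1:**
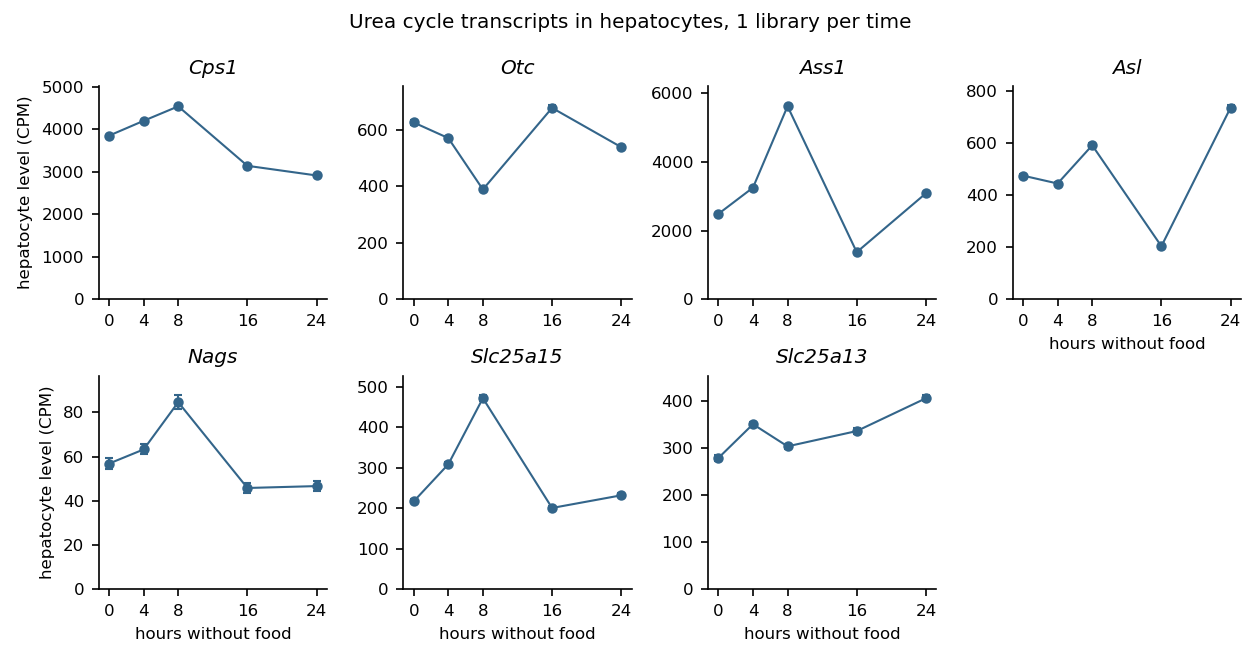
Level of each urea cycle gene (CPM, linear axes that start at 0) against hours without food, 1 point per library, with exact Poisson 95% intervals for counting error. Ass1, Slc25a15 and Nags peak at 8 h and are lowest at 16 h, Otc is lowest at 8 h, and Slc25a13 is above its fed level of 279 CPM in all 4 fasted libraries.

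The cytosolic enzymes moved most. Ass1 (ENSMUSG00000076441, chr2:31470207-31520672, plus) measured 2485 CPM when fed and 3249.9, 5620.4, 1372 and 3085 CPM after 4, 8, 16 and 24 h. At 8 h it was 2.26 times its fed level (log2 ratio 1.18, 1.17 to 1.19) and exceeded Cps1. In the 16 h library it was 1.81 times below fed and 4.10 times below 8 h (log2 ratio -2.03, -2.05 to -2.02), the widest range of the 7 genes.

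Asl, the next enzyme, shared the low 16 h library with Ass1 but had another peak. Asl (ENSMUSG00000025533, chr5:130011258-130029247, minus) measured 475, 445, 592, 204 and 737 CPM in time order. It was 2.33 times below fed at 16 h (log2 ratio -1.22, -1.26 to -1.18) and 1.55 times above fed at 24 h (0.63, 0.61 to 0.66), so that the 24 h library stood 3.61 times above the 16 h library. The 24 h value stayed past 1.5-fold in 8 of 13 other settings and was at its lowest 0.45, with 10 to 20% mt- UMIs. At 4 h its log2 ratio to fed of -0.10 turned positive in 5 of 13 other settings: with TMM or median-of-ratios scaling, which rescale whole libraries, with the mean of per-cell CPM, and with 0 to 30% or 2 to 15% mt- UMIs, the last giving the highest value of 0.33.

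Neighbouring levels of a gene, ordered over the 5 libraries, lay outside each other's counting intervals for all 7 genes except Nags at 16 and 24 h, but what animals or preparations would add is not known.

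**Figure D2:**
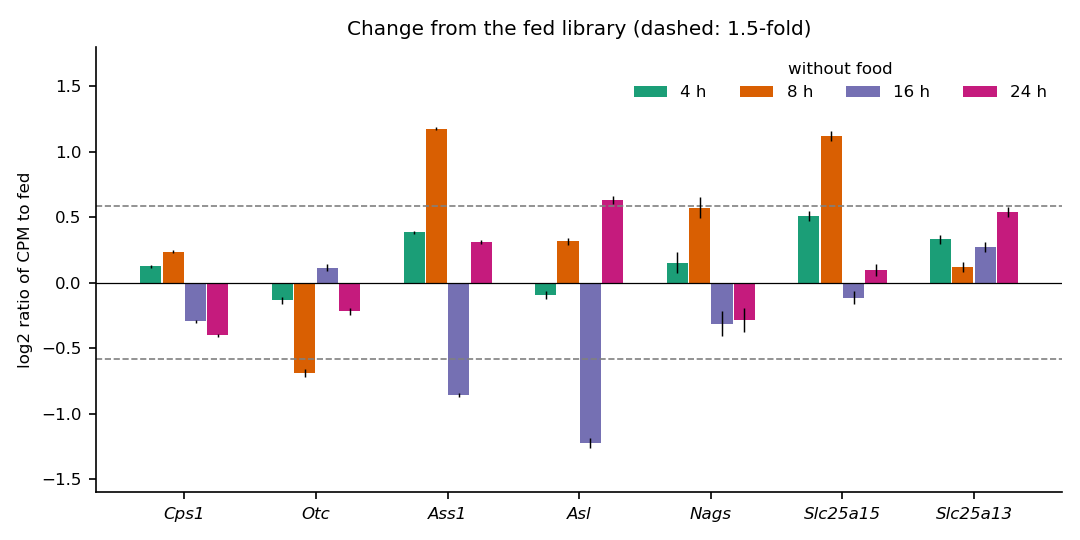
Log2 ratio of CPM in each fasted library to the shared fed library, with exact binomial 95% intervals for counting error; dashed lines mark 1.5-fold. Ass1 and Slc25a15 lie above the upper line at 8 h and Asl at 24 h, and Ass1 and Asl lie below the lower line at 16 h and Otc at 8 h.

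These counts were set against all genes with at least 50 CPM in either library. At 4 h 0 of the 7 genes were at least 1.5-fold higher or lower than fed, while 13.7% of 2948 genes were higher and 16.5% lower. The median log2 ratio was 0.15 over the 7 and -0.03 over all genes. At 8 h 2 were higher (Ass1, Slc25a15) and 1 lower (Otc), with 17.9% and 23.2% of 3019 genes, and medians of 0.32 and -0.04. At 16 h 0 were higher and 2 lower (Ass1, Asl), with 10.3% and 13.3% of 2994 genes, and medians of -0.29 and 0.00. At 24 h 1 was higher (Asl) and 0 lower, with 16.8% and 20.3% of 2980 genes, and medians of 0.10 and -0.03. Counts as small as these were near the background. The 4 comparisons share the fed library and are not independent.

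Steps between neighbouring times add where the changes lie. From 4 to 8 h 2 of 7 were higher (Ass1 and Slc25a15, by log2 0.79 and 0.61) and 0 lower, against 5.47% and 8.83% of 2797 genes. Between 8 and 16 h 4 of 7 were lower (Ass1, Asl, Slc25a15 and Nags, by log2 ratios of -2.03, -1.54, -1.23 and -0.89) and Otc alone was higher (0.80), against 21.8% lower and 26.2% higher of 3059 genes. The medians were -0.89 over the 7 and 0.07 over all genes, the widest gap of the 7 comparisons. From 16 to 24 h 2 of 6 genes at 50 CPM or more were higher (Asl and Ass1, by log2 1.85 and 1.17) and 0 lower, against 18.5% and 19.5% of 2991 genes.

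The choice of scaling moved the split of the background. In the 4 h library 404 genes were higher and 486 lower than fed, and 602 and 314 with TMM scaling. At 8 h the counts were 540 and 699, and 815 and 498 with TMM. For 24 h against fed they were 500 and 604, and 649 and 470 with TMM. From 8 to 16 h they were 801 and 667, and 528 and 887 with TMM, and from 16 to 24 h 552 and 584, and 653 and 422. With TMM the median log2 ratio of all genes to fed was 0.16, 0.19 and 0.12 at 4, 8 and 24 h. Against those shifted medians the urea cycle genes past 1.5-fold kept their directions, but some calls changed. At 4 h Slc25a15 passed at 0.67, where 0 of 7 had. At 8 h Nags passed at 0.77 and Otc no longer did, at -0.49, so that 3 were higher and 0 lower. At 24 h Slc25a13 passed at 0.66 beside Asl, and from 8 to 16 h Cps1 passed at -0.70, which made 5 lower.

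Position along the lobule was read from Cyp2f2 and Cyp2e1 in each cell. Hepatocytes of each library were ranked by the log2 ratio of the 2 genes (each per 10000 UMIs, plus 1) and cut into 3 equal terciles. These are ranges of a score and not places seen in tissue, and the axis genes themselves are no result. Cyp2e1 separated the terciles less at 24 h: the median cell of the Cyp2e1-high tercile held 4.50 Cyp2e1 UMIs per 10000 there, against 26.3 to 59.6 in the other libraries, and 4.26% of 24 h hepatocytes had no UMI of either gene.

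Under the hepatocyte rule few values of the urea cycle genes passed 1.5-fold along this axis. Free RNA was not subtracted in any setting of the axis. In all but 1 of 35 readings (7 genes in 5 libraries, of which Nags at 24 h lay under 50 CPM) the outer terciles differed by less than 1.5-fold. At 0 h 0 of 7 genes passed in either direction, while 1.76% of 2837 genes were higher in the Cyp2f2-high tercile and 4.76% in the Cyp2e1-high tercile. Again 0 of 7 passed at 4 h (4.1% and 6.63% of 2805 genes) and at 8 h (1.52% and 3.44% of 2704 genes). At 16 h 1 of 7 was higher in the Cyp2f2-high tercile and 0 in the other (2.64% and 5.7% of 2877 genes). At 24 h it was 0 of 6 (8% and 17.2% of 2739 genes). In the first 4 libraries, where few genes were zoned, 0 or 1 of 7 is near the background. The barcode filter changed this at 4 and 24 h: with 2 to 15% mt- UMIs 3 genes passed at 4 h and 4 at 24 h, with Cps1 at 24 h reaching 1.36, and with 0 to 30% mt- UMIs 5 passed at 24 h.

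Asl at 16 h was the exception between terciles. With outer quintiles in their place, Asl also passed 1.5-fold at 0 and 4 h, with log2 ratios of 0.79 and 0.67. Its Cyp2f2-high, middle and Cyp2e1-high terciles held 530.2, 494 and 365 CPM when fed and 480.5, 462 and 343 CPM after 4 h. The same terciles held 599.5, 632 and 523 CPM after 8 h, 235, 232 and 138 CPM after 16 h and 708, 707 and 859 CPM after 24 h. The log2 ratios of the outer terciles were 0.54 (0.48 to 0.60), 0.49 (0.43 to 0.55), 0.20 (0.14 to 0.25), 0.77 (0.68 to 0.87) and -0.28 (-0.32 to -0.23). Asl was thus lower near the Cyp2e1 end in the first 4 libraries. Cut into 5 quintiles, the step lay at that end: at 16 h Asl measured 119 and 184 CPM in the quintiles next to the Cyp2e1 end and 231 to 242 CPM in the other 3. At 4 h the order depended on barcodes with few mt- UMIs, and the ratio was -0.12 with 2 to 15% mt- UMIs and -0.33 with 0 to 30%.

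Ass1 and Otc sloped the same way in the first 4 libraries, by less except for Otc at 8 h. Ass1 had axis log2 ratios of 0.18, 0.33, 0.18, 0.37 and -0.23 in time order. Otc had 0.14, 0.15, 0.23, 0.29 and -0.21. Cps1, the ammonia-fixing step, was even from end to end in the first 4 libraries, with 0.05, 0.12, -0.01 and 0.07, and 0.39 at 24 h. The 4 h values depended on the barcode filter, and with 2 to 15% mt- UMIs that of Cps1 was 0.70, of Slc25a15 0.85, of Nags 0.63 and of Otc -0.34. The median over all genes was -0.06, -0.06, -0.05, -0.10 and 0.12 in time order. Slc25a13 had -0.09, -0.25, -0.07 and -0.19 from 0 to 16 h, of which the values at 0 and 8 h lay near that median and the one at 16 h kept its sign in all settings. Nags had -0.14, -0.43 and -0.30 at 4, 8 and 16 h. Of the 35 axis ratios 18 kept their sign in all 15 other settings of the axis, the scaling and the barcode filter. At 16 h all but that of Slc25a15 (-0.03) did so, and at 0 h only those of Asl and Otc.

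**Figure D3:**
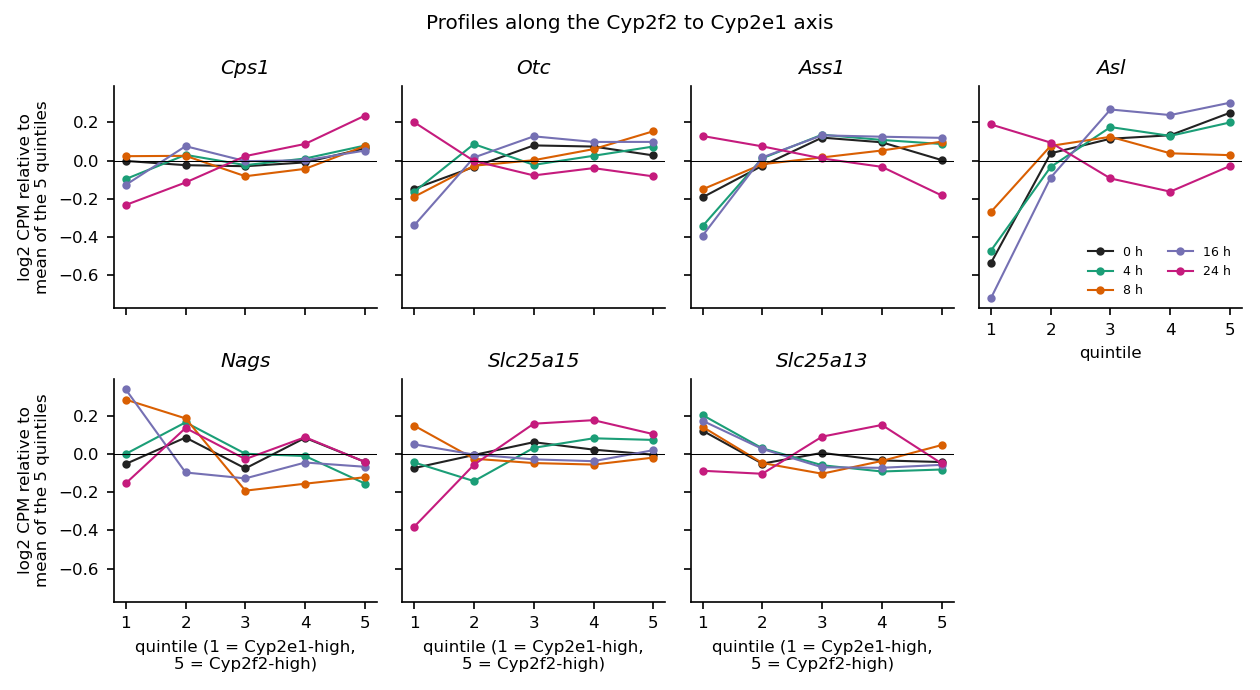
Profile of each urea cycle gene over 5 quintiles of hepatocytes ranked from the Cyp2e1-high to the Cyp2f2-high end: log2 CPM relative to the mean of the 5 quintiles, 1 line per library. Asl drops at the Cyp2e1 end at 0, 4, 8 and 16 h and is slightly raised there at 24 h.

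Most other nitrogen genes also stayed under 1.5-fold on this axis. Of those at 50 CPM or more, 15 of 20, 16 of 23, 18 of 22, 12 of 19 and 17 of 21 did so in time order. The shares of all genes past it are those given above for the axis. Oat, Glul and Gls2 were among the genes past it in the first 4 libraries. Oat, which turns ornithine toward glutamate and proline, had axis log2 ratios of -4.39, -5.35, -6.76, -4.44 and -2.75, with 518, 1178, 369, 729.5 and 79.8 CPM in the Cyp2e1-high tercile. Glul, which makes glutamine, had -0.97, -2.91, -0.97, -3.11 and 0.24. Gls2, which frees ammonia from glutamine, had 1.13, 1.5, 0.73, 1.61 and 0.43. Glud1, which frees ammonia from glutamate, ranged from -0.47 to 0.07. The urea cycle genes were thus flatter than Oat, Gls2 and Glul in each of the first 4 libraries, and at 24 h Gls2 and Glul were flat as well. Staying under 1.5-fold was not particular to the urea cycle genes, since most nitrogen genes did so.

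**Figure D4:**
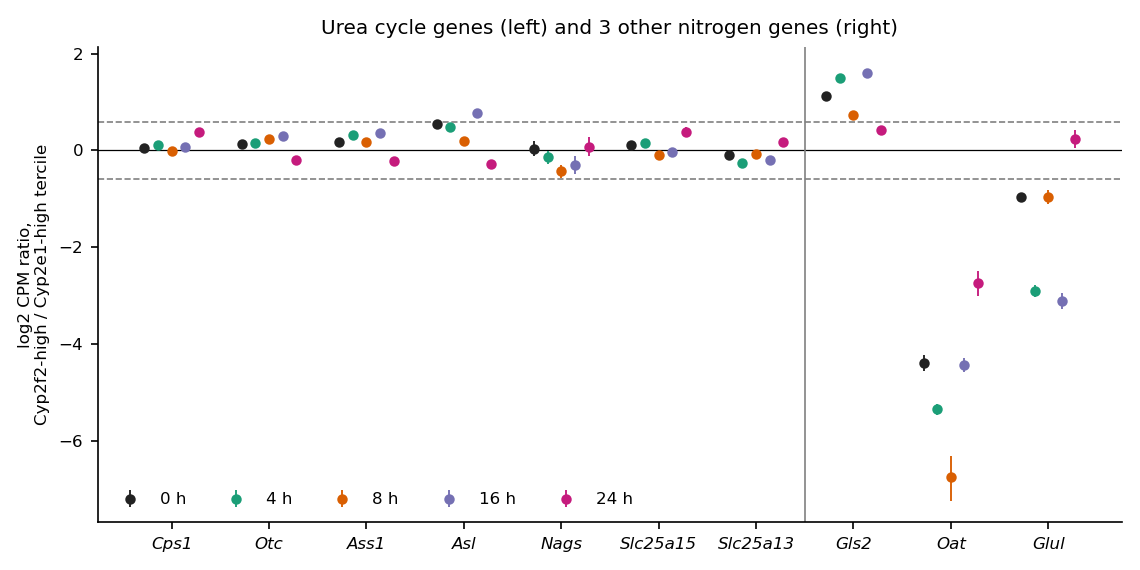
Log2 ratio of CPM between the Cyp2f2-high and Cyp2e1-high terciles in each library, for the 7 urea cycle genes and for Gls2, Oat and Glul, with binomial 95% intervals; dashed lines mark 1.5-fold. Asl at 16 h is the one urea cycle value outside the dashed lines.

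Barcode depth and mt- share differed between the outer terciles at 24 h, and their part in the 24 h slopes was not tested. In that library the Cyp2e1-high tercile had a median of 3028 UMIs and 11.1% mt- UMIs, against 11202 UMIs and 18.4% in the Cyp2f2-high tercile. Among hepatocytes of 10 to 20% mt- UMIs, a range chosen after seeing the data, the 24 h axis log2 ratio of Asl was -0.04 in place of -0.28, that of Ass1 0.02, of Otc 0.05 and of Cps1 0.10. The ratio of Asl at 16 h was 0.77 in the same range. Depth differed in the other libraries as well, with medians in the Cyp2e1-high and Cyp2f2-high terciles of 2812 and 5719 UMIs at 0 h, 3091 and 18952 at 4 h, 10855.5 and 15602 at 8 h and 3856.5 and 4330.0 at 16 h. In cells thinned to 3000 UMIs the axis log2 ratio of Asl was 0.33 in place of 0.54 at 0 h and 0.63 in place of 0.77 at 16 h.

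The differences from fed were also read within the terciles. Ass1 at 8 h was above fed by log2 1.23, 1.11 and 1.23 in the Cyp2e1-high, middle and Cyp2f2-high terciles. Slc25a15 at 8 h was above fed by 1.30, 1.04 and 1.09, and Otc stood at -0.71, -0.73 and -0.61. At 16 h Asl stood at -1.40, -1.09 and -1.17 and Ass1 at -0.96, -0.83 and -0.77. All of these were thus found along the whole axis. Asl at 24 h was uneven, at 1.24 in the Cyp2e1-high tercile and 0.52 and 0.42 in the others.

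The mt- share of a barcode went with the level of several urea cycle genes inside each library. Cps1 measured 1750.0, 1505, 1468, 2178 and 851 CPM in the barcodes under 2% mt- UMIs that the hepatocyte rule leaves out, below its hepatocyte level in all 5 libraries. Slc25a15 was likewise lower there in all 5, at 100.2, 123, 140.0, 155 and 112 CPM. Ass1 and Asl were higher there at 0, 4, 16 and 24 h and lower at 8 h, and Asl at 24 h reached 1589.9 CPM against 737 in hepatocytes. The counted hepatocytes of 2 to 5% mt- UMIs were also low in Cps1 outside the 8 h library, with 1527, 1657, 1157 and 861 CPM of Cps1 at 0, 4, 16 and 24 h, and the 590 of them at 24 h held 1319 CPM of Asl. Alb was far lower in the barcodes under 2% mt- UMIs, at 11835 to 31110 CPM.

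Strata of equal mt- share were therefore compared across libraries. Between 10 and 15% mt- UMIs Cps1 measured 3991, 3305, 4556, 2942 and 2639 CPM in time order, so that the 24 h library was again below fed while the 4 h library now was too. Ass1 measured 2568, 3426, 5696, 1294 and 3189.5 CPM in this stratum, Asl 479, 530.0, 569, 190.0 and 672, Slc25a15 222, 270.3, 471.0, 199 and 238, and Otc 641, 493, 397, 658 and 531. The high 8 h levels of Ass1 and Slc25a15, the low 16 h levels of Ass1 and Asl and the low 8 h level of Otc were thus present at a matched mt- share.

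**Figure D5:**
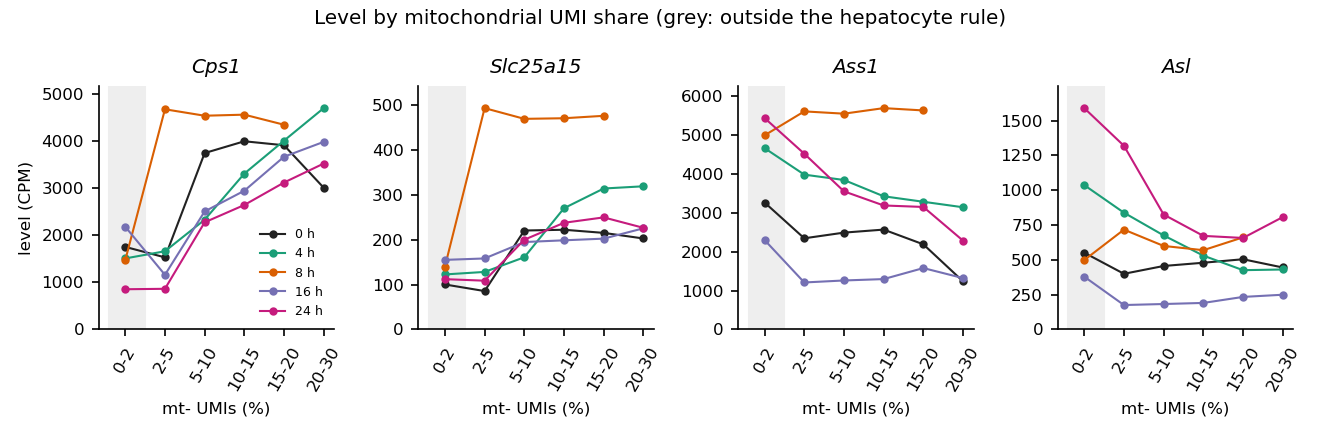
Level (CPM, axes from 0) of Cps1, Slc25a15, Ass1 and Asl by the percentage of mt- UMIs of the barcode, 1 line per library, with the stratum outside the hepatocyte rule in grey and strata of fewer than 50 barcodes not drawn. Outside the 8 h library Cps1 and Slc25a15 are low both in the grey stratum and between 2 and 5% mt- UMIs, and Ass1 at 8 h lies at 4995.5 CPM in the grey stratum and at 5553 to 5696 CPM in the others.

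Per cell, Cps1 and Ass1 were the transcripts detected most often. Each cell was thinned to 1000 UMIs outside the mt- genes, and 0 to 117 hepatocytes a library were too shallow. Barcodes that also met the endothelial rule, 178, 9, 10, 55 and 31 in time order, were left out of these shares. Cps1 was then detected in 93.7%, 93.2%, 98.2%, 94.1% and 83.3% of hepatocytes in time order, and Ass1 in 86.3%, 93.3%, 99.0%, 70.1% and 91.7%. Asl was detected in 37.0%, 37.9%, 45.3%, 19.0% and 55.0%. The remaining genes were detected as follows over the 5 libraries: Otc in 34.0% to 48.1%, Slc25a13 in 22.7% to 29.0%, Slc25a15 in 16.8% to 38.4% and Nags in 3.83% to 8.58% of hepatocytes. Before thinning, Asl was found in 49.3% of hepatocytes at 16 h and 81.1% to 96.1% in the other libraries.

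Free RNA limits such shares, but barcodes with endothelial markers do not measure it. In them free RNA, mixed barcodes and the cells' own expression cannot be told apart. In the 292 fed endothelial barcodes, of which 178 also met the hepatocyte rule, thinned shares were 61.3% for Cps1 (Clopper-Pearson 95% interval 55.5% to 66.9%), 81.5% for Ass1 (76.6% to 85.8%) and 26.7% for Asl (21.7% to 32.2%). Their median depth was 1786 UMIs, against 5512.5 in the hepatocytes compared. Of the endothelial barcodes at 4, 8, 16 and 24 h, 9, 10, 55 and 31 also met the hepatocyte rule. At 24 h Ass1 was in 90.5% (77.4% to 97.3%) and Asl in 52.4% (36.4% to 68.0%) of 42 endothelial barcodes. These intervals include the shares of hepatocytes. Cps1 was in 59.5% (43.3% to 74.4%), below its share in hepatocytes. At 16 h Cps1 was in 55.9% (42.4% to 68.8%), Ass1 in 61.0% (47.4% to 73.5%) and Asl in 11.9% (4.91% to 22.9%) of 59. At 8 h Ass1 was in 33.3% (13.3% to 59.0%) of 18, below its share in hepatocytes, and the 4 h library held 9 such barcodes. The shares above therefore give detection and not the number of cells that express a gene. A further setting took 10% of hepatocyte UMIs as free RNA, with the profile of each library's barcodes under 1% mt- UMIs. What those barcodes hold was not tested. Removing that profile left the log2 ratio of Asl at 24 h to fed at 0.46, under 1.5-fold.

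Within cells the counts of most genes were low, so that correlations are given as a description. In hepatocytes thinned to 3000 UMIs, the 21 pairs had median Spearman coefficients of 0.02, 0.01, 0.01, 0.01 and 0.03 in time order. Nags was at 0 UMIs in 76.3% to 87.3% of these cells and Slc25a15 in 23.6% to 54.8%. Coefficients near 0 are therefore not read as independence. The highest were 0.23 for Cps1 and Ass1 at 16 h, over 5984 cells, and 0.23 for Otc and Ass1 at 24 h, over 3260 cells, and the lowest were -0.13 for Cps1 and Asl and -0.12 for Asl and Slc25a13, both at 24 h. Cells of a library share its free RNA. The median thinned cell held 12, 13, 14, 9 and 9 UMIs of Cps1 and 7, 9, 17, 4 and 9 of Ass1. Every one of 2395 thinned cells at 8 h held an Ass1 UMI, and 3.39% at 16 h held none.

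The wider pathway was read from 39 genes of nitrogen handling and 12 known regulators. At 4 h 5 of 21 nitrogen genes past 50 CPM were at least 1.5-fold higher than fed and 1 lower, against 13.7% and 16.5% of all genes. Got1, the cytosolic aspartate aminotransferase, stood at a log2 ratio of 2.20, the arginine transporter Slc7a2 at 1.51, Oat at 1.05 and Glul at -1.18. At 8 h 9 of 22 were higher and 1 lower, against 17.9% and 23.2% of all genes, among them Got1 at 3.46, the glutamate carrier Slc25a22 at 1.87, Prodh, which degrades proline, at 1.59, and Glul at -1.62. Got1 and Slc25a22 thus peaked in the library in which Ass1 and Slc25a15 peaked.

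The later libraries divided. At 16 h 5 of 20 nitrogen genes were higher than fed and 5 lower, against 10.3% and 13.3% of all genes, with Slc7a2 at 1.29, the urea and glycerol channel Aqp9 at 1.05, Glul at -1.04 and Odc1, which starts polyamine synthesis from ornithine, at -1.40. At 24 h 7 of 21 were higher and 3 lower, against 16.8% and 20.3% of all genes, with Got1 at 1.92, Slc7a2 at 1.54, Glul at -1.94 and Oat at -2.49. Glul was lower than fed in all 4 fasted libraries. Gls2 measured 536, 417, 515, 344 and 539 CPM and Glud1 678, 1264, 1437, 935 and 792 CPM.

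From 8 to 16 h 10 of 22 nitrogen genes were lower and 2 higher, against 21.8% and 26.2% of all genes (528 higher and 887 lower with TMM), with Got1 at -2.69, Prodh at -2.39, the mitochondrial carbonic anhydrase Car5a at -1.5 and Odc1 at -1.35, and a median of -0.58, beside 0.07 over all genes. From 4 to 8 h 3 of 22 were higher (Slc25a22 at 1.76, Got1 at 1.26, Prodh at 0.67) and 1 lower (Oat at -1.58), against 5.47% and 8.83%. From 16 to 24 h 10 of 21 were higher and 5 lower, against 18.5% and 19.5%, with Prodh at 1.81, Slc25a10 at 1.49, Slc25a11 at 1.25 and Oat at -3.27. Ass1, Asl, Got1 and Prodh were each lower at 16 h than at 8 h and higher again at 24 h, but relative to fed Got1 stood at 0.77 at 16 h, above it, where Ass1 and Asl were below.

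Among the regulators, 4 of 9 were higher than fed at 4 h and 0 lower, against 13.7% and 16.5% of all genes: Ppargc1a at 1.22, Klf15 at 0.77, Ppara at 0.74 and Hnf4a at 0.61. Klf15, a fasting-induced factor known to act on amino acid breakdown, was past 1.5-fold at 8, 16 and 24 h as well (1.08, 0.60 and 0.79). At 8 h 3 of 8 were higher, with Hnf4a at 1.04, and 2 lower, Foxa2 at -1.71 and the glucocorticoid receptor Nr3c1 at -0.71. At 16 h 2 of 8 were higher (Ppara at 0.74, Klf15) and 1 lower (Foxa2 at -0.65), with Hnf4a at -0.09. At 24 h 2 were higher (Ppara at 1.23, Klf15) and 1 lower (Foxa2 at -0.96), with Cebpa at -0.46. The shares of all genes at 8, 16 and 24 h were those given for the nitrogen genes. Hnf4a had the course of Slc25a15, with 279.5, 426.5, 573, 263 and 330.1 CPM.

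From 4 to 8 h 1 of 9 regulators was higher, the glucagon receptor Gcgr at 0.63, and 3 were lower, Foxa2 at -1.44, Nr3c1 at -0.75 and Ppargc1a at -0.66, beside 5.47% and 8.83% of all genes. From 8 to 16 h Foxa2 (1.06) and Nr3c1 (0.64) were higher, and Hnf4a (-1.13) and Gcgr (-0.68) lower, which is 2 of 8 each way beside 26.2% and 21.8%. From 16 to 24 h 0 of 8 passed, beside 18.5% and 19.5%, and Ppara at 0.49, Cebpa at -0.40, Gcgr at 0.39 and Hnf4a at 0.33 were farthest from 0.

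Genes with the most similar patterns were sought over 15 points, the 3 terciles of the 5 libraries, by the distance between centred log2(CPM + 1) profiles among 2681 genes of at least 50 CPM on average. Points of a library share its depth and scaling. The nearest to Cps1 were AI182371, Hdlbp and Pgk1 (distances 0.27, 0.41 and 0.43), and to Nags Grina, Pgk1 and Cltb (0.55, 0.56 and 0.58). Otc was nearest to Cfl2, Uqcrc2 and Arl1 (0.45, 0.49 and 0.54), Slc25a15 to Hnf4a, Tsc22d3 and Dst (0.46, 0.54 and 0.58) and Slc25a13 to Pipox, Ddah1 and Ppm1a (0.33, 0.38 and 0.40). The neighbours of Ass1, Gpx1, Tle5 and Prelid1 (0.84, 0.90 and 0.91), and of Asl, Ndufa13, Drap1 and Eno1 (1.06, 1.08 and 1.17), lay farther away. Between urea cycle genes the closest pairs were Cps1 with Nags (0.72) and Nags with Slc25a15 (0.83), so that no urea cycle gene had another among its 3 nearest.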

How the data were processed

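The authors deposited raw UMI counts, whole numbers for each gene in each barcode, made with Cell Ranger 6.0.1 against mm10, per the submitters' processing notes. The sources used here do not give the annotation version. A deposited table named the library of each of 50000 barcodes, and the number of per-sample columns not used was 0. No doublet caller was run, so doublets remain. The 7 genes and the pathway lists were chosen with earlier results of these data known, and 1 further gene of the cycle is not reported here. All 7 are named throughout, and of each pathway list the 4 with the largest log2 ratio in each comparison, with Glul, Gls2, Oat and Glud1. Hepatocyte counts were summed per library and divided by UMIs outside the mt- genes. Intervals are exact Poisson for CPM, Clopper-Pearson for shares and conditional binomial for ratios, at 95%. The call was 1.5-fold with 50 CPM or more in either library. Positions are from GENCODE M21 for GRCm38. The scripts were tested on simulated data. Software was python 3.11.15, numpy 2.4.6, scipy 1.17.1 and pandas 2.3.3. Alternatives covered barcode filters, scaling, free RNA, the fold and CPM limits and the axis. Those chosen after seeing the data were 10 to 20% mt- UMIs, 5 to 30% mt- UMIs for the axis, and leaving out shared barcodes.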

Additional observations from a re-analysis of the deposited data

Results flagged for a closer look

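The barcodes under 2% mt- UMIs are outside the hepatocyte rule and enter no comparison between libraries or terciles under the main setting. Among the other settings, the widest barcode filter included them, and the free RNA setting drew its profile from part of them. The 7 urea cycle genes were detected in these barcodes. They made up 0.671% of the UMIs outside the mt- genes in those barcodes of the fed library, and 0.852%, 0.751%, 0.620% and 0.923% after 4, 8, 16 and 24 h, against 0.799%, 0.919%, 1.20%, 0.598% and 0.796% in hepatocytes. No control barcodes for this class exist in the design, and what these barcodes hold was not tested.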

How the results depend on the processing

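Of 28 log2 ratios to fed, the 6 past 1.5-fold kept their sign in all 13 other settings, and 4 stayed past it throughout. The others were Asl at 24 h (past it in 8 of 13, lowest 0.45) and Otc at 8 h (11 of 13, weakest -0.49). Of 9 steps between times past 1.5-fold, 8 stayed past it in all 13, and Slc25a15 from 4 to 8 h in 12 (lowest 0.58). Asl on the axis at 16 h stayed past it in all 15 axis settings, from 0.59 to 1.02. Signs were kept by 23 of 28 ratios to fed, 16 of 21 steps and 18 of 35 axis ratios.

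The count of urea cycle genes past 1.5-fold moved as follows. At 4 h it was 1 with TMM or median-of-ratios scaling. At 24 h against fed it was 0 with 3000 or more UMIs, 5 to 30% mt- UMIs, free RNA subtracted or all UMIs in the denominator, 2 with TMM or median-of-ratios scaling or 2 to 15% mt- UMIs, and 3 with 0 to 30% mt- UMIs. From 4 to 8 h it was 1 with 3000 or more UMIs. With a 2-fold call it was 0, 2, 1 and 0 against fed in time order, 0 from 4 to 8 h and 3 from 8 to 16 h. It was also 4 at 8 h against fed (all UMIs or free RNA subtracted), 3 from 4 to 8 h (0 to 30% or 2 to 15% mt- UMIs or free RNA subtracted) and 6 from 8 to 16 h (TMM, median-of-ratios, all UMIs, 2 to 15% mt- UMIs or free RNA subtracted). On the axis it was 1 at 0 h with TMM scaling, a denominator without abundant genes, a landmark score or outer quintiles. At 4 h it was 1 with outer quintiles, 3000 or more UMIs, 5 to 30% or 10 to 20% mt- UMIs and 3 with 2 to 15%, and at 24 h 5 with 0 to 30% mt- UMIs, 4 with 2 to 15%, 2 with the mean of per-cell CPM and 1 with Cyp2f2 alone. The cause was not tested.

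All genes past the call numbered 345, 597, 220 and 516 at 4, 8, 16 and 24 h against fed with a 2-fold call, and 93, 644 and 432 in the 3 steps. With a 10 CPM minimum they were 1998, 2798, 1560 and 2456, and 1137, 3235 and 2441. With no CPM minimum they were 5998, 6807, 5412 and 6872, and 3902, 7043 and 6067. With 0 to 30% mt- UMIs 1709 passed from 16 to 24 h, and with 2 to 15% 726 from 4 to 8 h. Median-of-ratios scaling gave 583 higher and 326 lower at 4 h, 815 and 495 at 8 h, 687 and 451 at 24 h, 552 and 871 from 8 to 16 h and 664 and 420 from 16 to 24 h. All UMIs in the denominator gave 276 and 566 at 4 h and 296 and 120 from 4 to 8 h.

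No paired analysis was possible because each time is 1 library, and for the same reason leaving out replicates was not run. Depth limits Nags most, with 1535 to 2880 UMIs a library.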
